A study of Drosophila melanogaster with 18 samples.

Results

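The core genes of the *Drosophila* apoptosis pathway were examined across all arrays of a temperature and RNAi experiment in cultured cells. The genes were the IAP antagonists *rpr* (*reaper*), *hid* (*head involution defective*), *grim* and *skl* (*sickle*), the inhibitor of apoptosis *Diap1*, the initiator caspase *Dronc* with its adaptor *Dark*, and the effector caspases *Drice* and *Dcp-1*. Every probe whose systematic name led to one of these 9 genes was kept, which gave 9 of the 13074 named genes on the array and 16 of its 32162 probes. A probe was tested when some group had it well above background on 2 or more of its 3 arrays. This held for 14 probes of 8 genes, among 21775 probes tested in all, and *grim* was the gene left untested.

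In flies, a cell that is to die transcribes one or more of the IAP antagonists, which lie near each other on chromosome arm 3L. Their products bind Diap1, a ubiquitin ligase that keeps caspases inactive in living cells, and so release Dronc. Dronc is then activated on a platform formed by Dark and cleaves Drice and Dcp-1, the proteases that take the cell apart. Many of the steps are controlled through protein cleavage and turnover, whereas the arrays measured transcript levels only.

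S2R+ cells, an adherent, hemocyte-like line from *Drosophila* embryos, had been plated in numbers matched to their later temperature, treated with double-stranded RNA and then kept for 24 h at 14, 25 or 30 °C. The double-stranded RNA was directed against *His2Av*, the gene of the histone variant H2Av (H2Av RNAi), or against bacterial *lacZ*, which flies lack (lacZ RNAi, the control). Thus the 6 groups were lacZ RNAi at 14 °C, at 25 °C and at 30 °C, and H2Av RNAi at the same temperatures, with 3 replicates each. All groups shared the cell line and the exposure to double-stranded RNA, and no group was left without it. The labels did not say whether replicates came from separate cultures, the study's text speaks of replicate experiments, and p-values measure the spread between these arrays.

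The *His2Av* transcript changed by -3.14 (log2) at 14 °C, -3.07 at 25 °C and -3.95 at 30 °C after H2Av RNAi, and passed at each. Of the hemocyte markers, 10 of 10 were well above background on all 18 arrays, but so were 4 of 4 neuronal and 2 of 2 germ line markers, against 1 of 3 for muscle, 0 of 4 for fat body and 0 of 2 for midgut. The 3 arrays of a group shared a slide that held no other group (6 slides), so that slide and group cannot be told apart in any comparison. Arrays of 1 group correlated with r between 0.957 and 0.995. The array lacZ RNAi at 25 °C, replicate 1, stood apart from its group: the median deviation of 18 mitochondrial probes from the other arrays of the group was -2.36 (log2), and its weight in a fit that weighs arrays by their spread was 0.12. Replicate 2 of lacZ RNAi at 30 °C also had a low weight (0.18). Its mean correlation with its group was 0.963, against 0.962 for replicate 1 of lacZ RNAi at 25 °C. Its mitochondrial deviation was 0.11. Calls for H2Av RNAi at 25 °C are given with and without replicate 1 of lacZ RNAi at that temperature. Counts of passing members with each array left out stand at the end. The bulk RNA cannot separate fewer cells with a transcript from less transcript per cell.

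**Figure D1:**
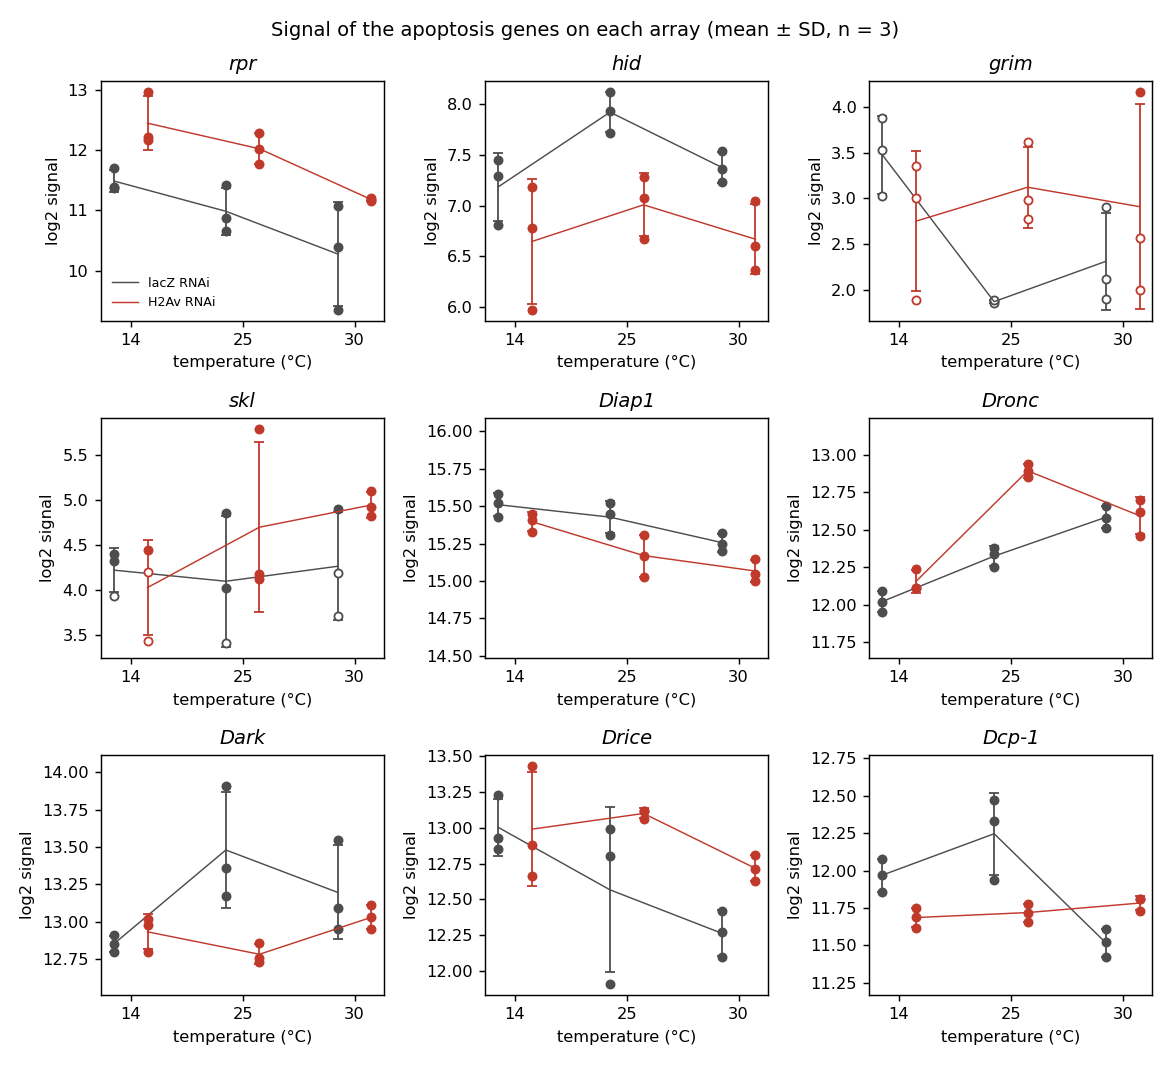
Log2 signal (y axis) of the representative probe of each apoptosis gene on each of the 18 arrays, by temperature (x axis, °C). Dark grey is lacZ RNAi, red is H2Av RNAi, bars are the mean ± SD (n = 3), lines join the means, and open circles are arrays on which the probe was not well above background. The y axes differ between panels. *rpr* was highest at 14 °C in both RNAi groups, *Dronc* was lowest there, and most *grim* circles are open.

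Levels are given as log2 signal after quantile normalization between arrays, and differences as log2 changes from a linear model over all arrays (limma) with 95% intervals. A gene passed when its representative probe, the one with the highest mean signal, had a p under 0.05 after Benjamini-Hochberg adjustment across the 21775 probes. Changes of at least 2-fold, the size used in the study, are named as such. Levels of different probes are not compared.

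H2Av RNAi was set against lacZ RNAi at each temperature. At 25 °C it changed 5 of the 8 tested genes, against 27.2% of all probes: *rpr* and *Dronc* were higher (11.2% of all probes) and *hid*, *Dark* and *Dcp-1* were lower (15.9%). There 7 genes had arrays without overlap between the RNAi groups, against 44.3% of all probes, and *rpr* alone passed with a 2-fold change (14.5% of all probes). At 14 °C, 0 genes passed (limma, 7.23% of all probes), with 1 gene (*rpr*) at an unadjusted p under 0.05 and 3 genes without overlap (32.4% of all probes). At 30 °C, 0 genes passed (12.2% of all probes), with 2 genes (*rpr* and *hid*) at an unadjusted p under 0.05 and 5 genes without overlap (30.2%). Over the temperatures 4 genes passed (35.9% of all probes), *rpr* and *Dronc* higher (16.1%) and *hid* and *Diap1* lower (19.8%). After scaling to the 75th percentile, *rpr*, *skl* and *Dronc* were higher and *Dark* and *Dcp-1* lower at 25 °C (35.9% of all probes passed). Over the temperatures *rpr*, *skl* and *Dronc* were higher and no gene was lower (40.7%). The median of all probes then stood at 0.43 and 0.25. Without replicate 1 of lacZ RNAi at 25 °C, *rpr* (limma adjusted p = 0.0857) and *Dark* (0.0736) no longer passed at 25 °C under this scaling. The same genes passed over the temperatures. With quantile normalization, the median change of the 8 genes was 0.14 at 25 °C, against 0.02 over all probes.

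The 25 °C count changed with the arrays in the fit. Without replicate 1 of lacZ RNAi at 25 °C, 2 genes passed (*Dronc* and *Dcp-1*, 17.9% of all probes). In the fit of the compared groups only, 0 genes passed (limma, 11.5% of all probes), with adjusted p between 0.0541 and 0.131 for the genes called above and 5 genes at an unadjusted p under 0.05. How far that replicate's lower mitochondrial transcripts and the changes at 25 °C have to do with each other was not tested.

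**Figure D2:**
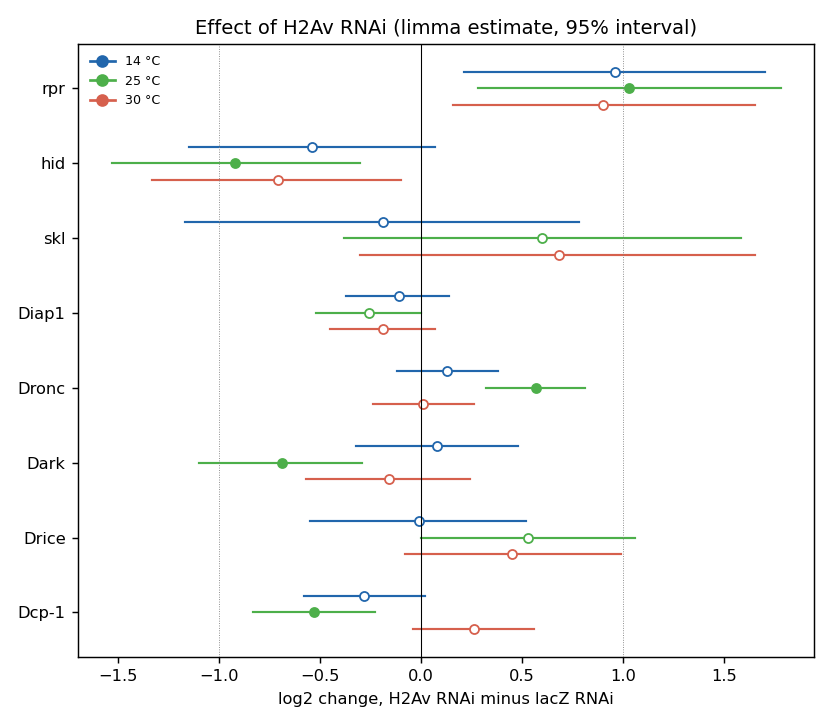
Log2 change after H2Av RNAi (x axis, H2Av RNAi minus lacZ RNAi) with its 95% interval for the 8 tested genes at 14 °C (blue), 25 °C (green) and 30 °C (red). Filled circles passed and open circles did not, and dotted lines mark a 2-fold change. The 3 estimates for *rpr* lie between 0.90 and 1.03.

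For temperature, 4 of the 8 genes passed between 14 and 30 °C in lacZ RNAi cells (31.9% of all probes): *rpr*, *Drice* and *Dcp-1* were higher in the cool (15.3%) and *Dronc* was lower (16.6%). In H2Av RNAi cells 3 genes passed (38.4% of all probes), *rpr* and *Diap1* higher (18.2%) and *Dronc* lower (20.2%). In both RNAi groups *rpr* was the gene that also changed 2-fold (1 gene each, 19.6% of all probes in lacZ RNAi and 24.3% in H2Av RNAi). Arrays at 14 and 30 °C did not overlap for 6 genes in lacZ RNAi (46.9% of all probes) and for 4 genes in H2Av RNAi (53.8%). Between 14 and 25 °C, *Dark* passed in lacZ RNAi cells (1 gene, 21.6% of all probes) and *Dronc* in H2Av RNAi cells (1 gene, 13.3%). Between 30 and 25 °C, *Dcp-1* passed in lacZ RNAi cells (1 gene, 15.2% of all probes), and 0 genes passed in H2Av RNAi cells (limma, 12% of all probes), with 2 genes at an unadjusted p under 0.05. In lacZ RNAi cells 3 genes did not overlap between 14 and 25 °C (40.9% of all probes) and 3 between 30 and 25 °C (24.4%), against 2 (37.5%) and 4 genes (44.7%) in H2Av RNAi cells.

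The difference in temperature effect between the RNAi groups was tested for each pair of temperatures, and 0 genes passed by limma. From 14 to 30 °C, 1 gene had an unadjusted p under 0.05, and 0.409% of all probes passed. The pair of 14 and 25 °C had 2 such genes, with 0.00918% of all probes passing, and that of 30 and 25 °C also had 2, with 0.794% passing. The last result changed with the processing. Both *Dronc* (-0.58, adjusted p = 0.0413) and *Dcp-1* (0.79, 0.043) passed for 30 against 25 °C after normexp background correction (0.969% of all probes). With array weights they passed as well (-0.49, adjusted p = 0.0308, and 0.77, 0.00826, with 6.26% of all probes). In the deposited matrix (0.82, adjusted p = 0.0499, 0.899% of all probes) and without replicate 2 of lacZ RNAi at 25 °C (0.94, 0.019, 1.06% of all probes), *Dcp-1* passed. A passing change in one RNAi group and a missed one in the other, as for *Drice* and *Diap1*, is not shown to differ.

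**Figure D3:**
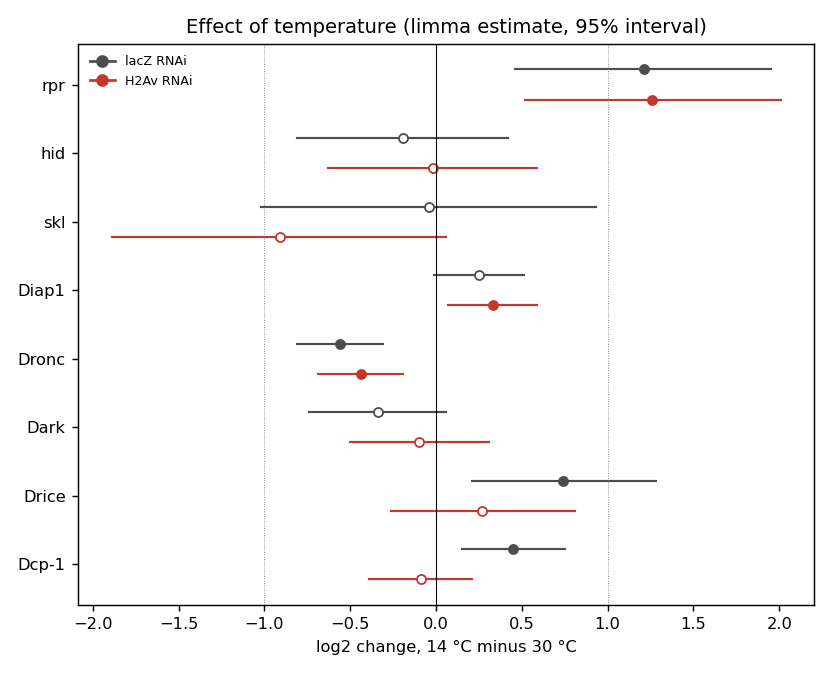
Log2 change between 14 and 30 °C (x axis, 14 °C minus 30 °C) with its 95% interval for the 8 tested genes in lacZ RNAi (dark grey) and H2Av RNAi (red). Filled circles passed and open circles did not, and dotted lines mark a 2-fold change. *rpr* (1.21 and 1.26) and *Dronc* (-0.56 and -0.44) passed in both RNAi groups.

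*rpr*, an IAP antagonist induced by many death signals, was the member with the largest passing change on representative probes after H2Av RNAi and between 14 and 30 °C. On its probe (A_09_P013426), lacZ RNAi cells gave 11.37, 11.39 and 11.70 (14 °C), then 10.66, 11.42 and 10.88 (25 °C), then 9.36, 11.08 and 10.40 (30 °C). H2Av RNAi cells gave 12.21, 12.96 and 12.16 (14 °C), then 11.77, 12.28 and 12.01 (25 °C), then 11.18, 11.15 and 11.21 (30 °C). At every temperature all 3 H2Av RNAi arrays were above all 3 lacZ RNAi arrays, and in both RNAi groups all arrays at 14 °C were above all arrays at 30 °C. From high to low, the group means ran from H2Av RNAi at 14 °C (12.44 ± 0.45, SD, n = 3) over H2Av RNAi at 25 °C (12.02 ± 0.26), lacZ RNAi at 14 °C (11.49 ± 0.18), H2Av RNAi at 30 °C (11.18 ± 0.03) and then lacZ RNAi at 25 °C (10.99 ± 0.39) to lacZ RNAi at 30 °C (10.28 ± 0.86). In that order, H2Av RNAi at 25 °C did not overlap with lacZ RNAi at 14 °C, nor lacZ RNAi at 14 °C with H2Av RNAi at 30 °C, whereas the other neighbours overlapped.

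Averaged over the temperatures, *rpr* rose by 0.96 after H2Av RNAi (1.95-fold, interval 0.53 to 1.39, limma adjusted p = 0.00198). The estimates at the single temperatures were 0.96 at 14 °C (interval 0.21 to 1.70), 1.03 at 25 °C (0.28 to 1.78) and 0.90 at 30 °C (0.16 to 1.65). Of these only the one at 25 °C passed (2.04-fold, adjusted p = 0.041, against 0.115 at 14 °C and 0.114 at 30 °C). That call was lost in 11 of 18 fits that each left out 1 array, with adjusted p between 0.0116 and 0.14, in the fit of the compared groups only (0.0563) and with dim probes kept (0.0594). Without replicate 1 of lacZ RNAi at 25 °C the change was 0.87 (adjusted p = 0.14). The averaged change passed in all 18 of these fits, with changes from 0.81 to 1.10.

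Between temperatures, *rpr* was higher at 14 than at 30 °C by 1.21 in lacZ RNAi cells (2.31-fold, interval 0.46 to 1.95, limma adjusted p = 0.0164) and by 1.26 in H2Av RNAi cells (2.40-fold, interval 0.52 to 2.01, adjusted p = 0.0108). The difference between these changes was 0.05, with an interval from -1.0 to 1.11 (adjusted p = 0.996). The means at 25 °C lay between those at 14 and 30 °C and passed against neither. In lacZ RNAi cells the replicates at 30 °C spread from 9.36 to 11.08, and the change was 0.75 (adjusted p = 0.07) without replicate 1 at 30 °C and 1.10 (0.0596) without replicate 3 at 14 °C, and the fit of the compared groups only gave an adjusted p of 0.0962. The difference in H2Av RNAi cells was 1.00 (adjusted p = 0.0553) without replicate 2 at 14 °C.

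*hid*, whose product is the IAP antagonist under control of survival signalling through Ras and MAPK, had the opposite sign to *rpr* after H2Av RNAi. Its representative probe (A_09_P010036) gave 6.81, 7.45 and 7.29 (14 °C), then 7.93, 7.72 and 8.12 (25 °C), then 7.36, 7.54 and 7.23 (30 °C) in lacZ RNAi cells. The H2Av RNAi arrays read 5.97, 7.18 and 6.78 (14 °C), then 6.67, 7.07 and 7.28 (25 °C), then 6.36, 6.6 and 7.04 (30 °C). The groups did not overlap at 25 and 30 °C and overlapped at 14 °C. *hid* was lower by 0.72 over the temperatures (60.6% of the lacZ RNAi level, change -0.72, interval -1.08 to -0.37, limma adjusted p = 0.00366) and at 25 °C (-0.92, interval -1.53 to -0.30, adjusted p = 0.0299).

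The estimates for *hid* at 14 °C (-0.54, interval -1.15 to 0.07) and 30 °C (-0.71, interval -1.33 to -0.10) did not pass. The call at 25 °C was lost without replicate 1 of lacZ RNAi (-0.91, adjusted p = 0.0716), without replicate 3 of lacZ RNAi (-0.82, 0.0842), and without replicate 1 (-0.75, 0.12) or 2 (-0.95, 0.0676) of H2Av RNAi. With each array scaled to its 75th percentile in place of quantile normalization, the *hid* change was -0.19 at 25 °C and -0.34 over the temperatures, and neither passed (adjusted p = 0.663 and 0.178), while the median of all probes stood at 0.43 and 0.25. The mean over both *hid* probes did not pass at 25 °C either (-0.67, adjusted p = 0.117). The second *hid* probe (A_09_P049016) gave -0.43 at 25 °C (interval -1.22 to 0.37) and -0.51 over the temperatures (interval -0.97 to -0.05, adjusted p = 0.0789). Between 14 and 30 °C, *hid* differed by -0.19 in lacZ RNAi cells (interval -0.81 to 0.42) and by -0.02 in H2Av RNAi cells (interval -0.63 to 0.59), neither of which passed.

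*grim* and *skl*, the remaining IAP antagonists, gave signals at or near background. For *grim*, 1 of the probes (A_09_P105230) was well above background on 1 of 18 arrays, which was an H2Av RNAi array at 30 °C, and the other (A_09_P031406) on 0. *grim* is therefore neither tested nor given a fold change. Both *skl* probes were well above background on 12 of 18 arrays. The brighter *skl* probe (A_09_P046406) reached between 3.41 and 4.90 on lacZ RNAi arrays, between 3.44 and 4.45 in H2Av RNAi at 14 °C, between 4.13 and 5.79 at 25 °C, and between 4.82 and 5.10 at 30 °C.

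In none of the comparisons did *skl* pass after quantile normalization, and its intervals were wide. After H2Av RNAi the change was -0.19 at 14 °C (interval -1.17 to 0.78), 0.60 at 25 °C (-0.38 to 1.58) and 0.68 at 30 °C (-0.30 to 1.65). With arrays scaled to their 75th percentile, *skl* passed at 25 °C (1.48, limma adjusted p = 0.012) and over the temperatures (0.83, 0.0097), against 0.36 (0.306) after quantile normalization. Under this scaling the median of all probes itself stood at 0.43 and 0.25, and 35.9% and 40.7% of all probes passed. Without replicate 1 of lacZ RNAi at 25 °C, this scaling gave 1.62 (adjusted p = 0.0215) and 0.88 (0.0102) for the same *skl* probe. The other *skl* probe (A_09_P034256) was not well above background on any lacZ RNAi array at 25 °C (mean 3.20 ± 0.27, SD, n = 3) and was so on 3 of 3 H2Av RNAi arrays (3.78 ± 0.11), and the difference did not pass (0.58, interval -0.69 to 1.86, limma adjusted p = 0.48). In H2Av RNAi cells, all arrays at 14 °C were below all arrays at 30 °C for the brighter *skl* probe (change -0.91, interval -1.89 to 0.06, adjusted p = 0.13). Of the 7 protein-coding genes that flank or separate the IAP antagonists and are on the array, *geko* alone was tested. It was well above background on 7 arrays, whose groups are not given here. Thus *geko* may have entered the test only through groups where it was high, and no fold change is given for it. Its call as lower at 14 than at 30 °C in H2Av RNAi cells (limma adjusted p = 0.0309) is therefore no evidence of a change. In lacZ RNAi cells the same comparison did not pass (adjusted p = 0.0973). After H2Av RNAi *geko* did not pass at 14 °C (adjusted p = 0.153), 25 °C (0.0845) or 30 °C (0.0544).

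*Diap1*, the inhibitor that all IAP antagonists bind, varied over the smallest range. Its probe (A_09_P009711) lay between 15.00 and 15.58 on the 18 arrays. In lacZ RNAi cells it gave 15.52, 15.43 and 15.58 (14 °C), then 15.31, 15.45 and 15.52 (25 °C), then 15.32, 15.25 and 15.20 (30 °C). After H2Av RNAi it gave 15.41, 15.45 and 15.33 (14 °C), then 15.17, 15.03 and 15.31 (25 °C), then 15.05, 15.00 and 15.15 (30 °C). The H2Av RNAi arrays were at or below the lacZ RNAi arrays at 25 and 30 °C, and the groups overlapped at 14 °C. Averaged over the temperatures, the *Diap1* change was -0.19 (87.8% of the lacZ RNAi level, interval -0.34 to -0.04, limma adjusted p = 0.0478), a call that was lost in 15 of 18 fits without 1 array (adjusted p between 0.023 and 0.102). With arrays scaled to their 75th percentile the averaged *Diap1* change was -0.03 (0.714), and the sign turned at 14 °C (0.10 in place of -0.11) and 30 °C (0.01 in place of -0.19). Between 14 and 30 °C it was 0.33 in H2Av RNAi cells (1.26-fold, interval 0.07 to 0.59, adjusted p = 0.0425, lost in 11 of 18 such fits) and 0.25 in lacZ RNAi cells (interval -0.01 to 0.51, adjusted p = 0.128). With the replicate number as a block within each RNAi group, the *Diap1* difference in H2Av RNAi cells had an adjusted p of 0.0716.

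*Dronc*, the initiator caspase, was lower at 14 than at 30 °C, opposite in sign to *rpr*. Its probe (A_09_P078596) gave 11.95, 12.09 and 12.02 (14 °C), then 12.38, 12.25 and 12.34 (25 °C), then 12.58, 12.66 and 12.51 (30 °C) in lacZ RNAi cells, so that no array overlapped between temperatures. In H2Av RNAi cells it gave 12.11, 12.24 and 12.11 (14 °C), then 12.94, 12.85 and 12.89 (25 °C), then 12.70, 12.62 and 12.46 (30 °C), again with no overlap. Replicates of *Dronc* were tight, with SDs of 0.05 to 0.12. H2Av RNAi at 25 °C was the highest group (12.89), the groups at 30 °C overlapped with each other (12.59 and 12.58), and lacZ RNAi at 14 °C was the lowest (12.02).

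At 14 °C, *Dronc* was lower than at 30 °C in lacZ RNAi cells (67.8% of the level at 30 °C, change -0.56, interval -0.81 to -0.31, limma adjusted p = 0.00205) and in H2Av RNAi cells (73.6% of the level at 30 °C, -0.44, interval -0.69 to -0.19, adjusted p = 0.00812). In H2Av RNAi cells it was also lower at 14 than at 25 °C (-0.74, interval -0.99 to -0.49, adjusted p = 0.00101). After H2Av RNAi *Dronc* rose at 25 °C by 0.57 (1.48-fold, interval 0.32 to 0.81, adjusted p = 0.00343), also without replicate 1 of lacZ RNAi (0.60, adjusted p = 0.00497). The change was 0.13 at 14 °C (interval -0.12 to 0.38) and 0.01 at 30 °C (interval -0.24 to 0.26), and neither passed. The difference between the RNAi effects at 30 and 25 °C was -0.56 (interval -0.91 to -0.21), which did not pass (adjusted p = 0.196) but did after normexp background correction and with array weights. All of these *Dronc* calls passed in each of the 18 fits without 1 array, and in the fit of the compared groups only, the calls at 25 °C after RNAi (adjusted p = 0.073) and between 14 and 30 °C in H2Av RNAi cells (0.059) were lost.

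*Dark*, the Apaf-1-like adaptor of Dronc, had 4 probes that did not move together. On the brightest (A_09_P076786), lacZ RNAi cells gave 12.91, 12.85 and 12.80 (14 °C), then 13.91, 13.36 and 13.17 (25 °C), then 12.95, 13.55 and 13.09 (30 °C). H2Av RNAi cells gave 12.98, 12.80 and 13.02 (14 °C), then 12.73, 12.76 and 12.86 (25 °C), then 12.95, 13.03 and 13.11 (30 °C). The lacZ RNAi arrays at 25 °C were above all H2Av RNAi arrays, with replicate 1 the farthest. *Dark* was lower after H2Av RNAi at 25 °C (61.9% of the lacZ RNAi level, -0.69, interval -1.10 to -0.29, limma adjusted p = 0.0158), and in lacZ RNAi cells it was lower at 14 than at 25 °C (-0.62, interval -1.03 to -0.22, adjusted p = 0.0306). Without replicate 1 of lacZ RNAi at 25 °C these *Dark* changes were -0.48 (adjusted p = 0.0601) and -0.41 (0.112), and the first was also lost without replicate 1 of H2Av RNAi at 25 °C (-0.67, 0.0547). The second was also lost without any 1 of the lacZ RNAi arrays at 14 °C (adjusted p between 0.0632 and 0.0912).

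A second *Dark* probe for the same transcript name (A_09_P103745) gave a like picture, with -0.66 after H2Av RNAi at 25 °C (limma adjusted p = 0.0312) and -0.83 at 14 against 25 °C in lacZ RNAi cells (0.0124), and without replicate 1 of lacZ RNAi at 25 °C with -0.46 (0.129) and -0.63 (0.0489). The probe for the other transcript name (A_09_P076781) was also lower after H2Av RNAi at 25 °C (-0.45, adjusted p = 0.0439, and 0.082 without that replicate), but at 14 against 25 °C it was higher in H2Av RNAi cells (0.63, 0.0155), where the brightest probe gave 0.15 (0.676). The dimmest *Dark* probe (A_09_P146456), which carries the same transcript name as the brightest, was lower at 14 than at 30 °C in lacZ RNAi (-0.97, adjusted p = 0.0485) and H2Av RNAi cells (-1.47, adjusted p = 0.00457), and did not pass after H2Av RNAi at 25 °C (0.25, interval -0.51 to 1.00). No *Dark* probe passed after H2Av RNAi at 14 or 30 °C. The positions of the probes in the gene were not analysed here.

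**Figure D4:**
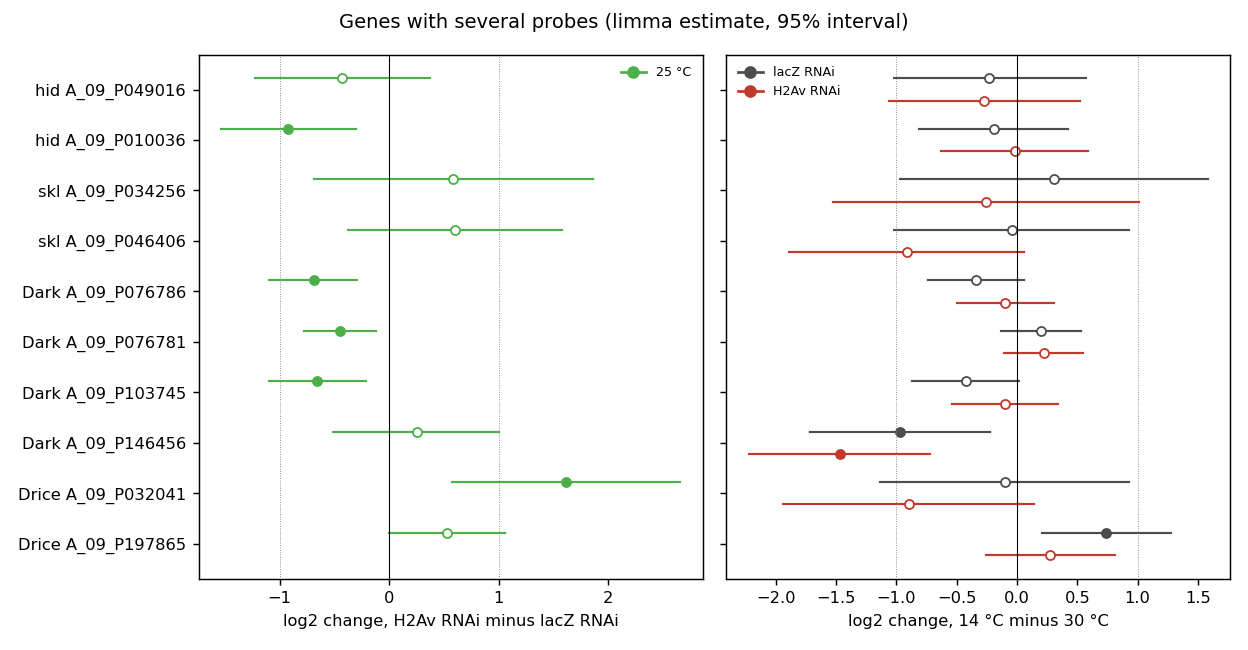
Log2 change (x axis) with its 95% interval for each tested probe of the genes with several probes. Left, H2Av RNAi minus lacZ RNAi at 25 °C, and right, 14 °C minus 30 °C in lacZ RNAi (dark grey) and H2Av RNAi (red). Filled circles passed and open circles did not, and dotted lines mark a 2-fold change. In the right panel the dimmest *Dark* probe (A_09_P146456, -0.97 and -1.47) lies apart from the other *Dark* probes.

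*Drice*, the main effector caspase, had a probe pair that disagreed. The brighter probe (A_09_P197865) gave 12.93, 13.23 and 12.85 (14 °C), then 11.91, 12.80 and 12.99 (25 °C), then 12.27, 12.42 and 12.10 (30 °C) in lacZ RNAi cells. With H2Av RNAi it gave 12.88, 13.43 and 12.66 (14 °C), then 13.12, 13.12 and 13.06 (25 °C), then 12.81, 12.63 and 12.71 (30 °C). In lacZ RNAi cells all arrays at 14 °C were above all arrays at 30 °C, and at 25 °C replicate 1 was the lowest of all 18 arrays. *Drice* was higher at 14 than at 30 °C in lacZ RNAi cells (1.67-fold, change 0.74, interval 0.21 to 1.28, limma adjusted p = 0.0347), whereas in H2Av RNAi cells the difference of 0.27 (interval -0.26 to 0.81) did not pass. Leaving out replicate 1 (0.78, adjusted p = 0.0653), 2 (0.63, 0.125) or 3 (0.82, 0.052) at 14 °C, or 1 (0.74, 0.0703) or 3 (0.66, 0.106) at 30 °C, ended the *Drice* call.

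After H2Av RNAi the brighter *Drice* probe gave 0.53 at 25 °C (interval 0.00 to 1.06, limma adjusted p = 0.127), and 0.20 (0.522) without replicate 1 of lacZ RNAi. On the other *Drice* probe (A_09_P032041), lacZ RNAi cells at 25 °C gave 9.52, 11.52 and 10.59, and H2Av RNAi cells gave 12.46, 11.94 and 12.07, with no overlap. This probe rose by 1.61 at 25 °C (interval 0.57 to 2.65, adjusted p = 0.0252) and by 0.87 over the temperatures (adjusted p = 0.0253). Without replicate 1 of lacZ RNAi at 25 °C, these *Drice* changes were 1.10 (adjusted p = 0.119) and 0.70 (0.0427). Between 14 and 30 °C it gave -0.10 in lacZ RNAi cells (interval -1.14 to 0.93), against the 0.74 of the brighter *Drice* probe, and the mean of both probes gave 0.32 (adjusted p = 0.484).

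*Dcp-1*, the other effector caspase, varied with temperature in lacZ RNAi cells. Its probe (A_09_P012601) gave 11.86, 11.97 and 12.08 (14 °C), then 12.47, 11.94 and 12.33 (25 °C), then 11.52, 11.61 and 11.42 (30 °C) in lacZ RNAi cells. In H2Av RNAi cells it gave 11.75, 11.69 and 11.62 (14 °C), then 11.78, 11.66 and 11.72 (25 °C), then 11.81, 11.73 and 11.81 (30 °C). The arrays at 30 °C were the lowest in lacZ RNAi, while the 9 H2Av RNAi arrays lay within 11.62 and 11.81.

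In lacZ RNAi cells *Dcp-1* was lower at 30 than at 25 °C (60.3% of the level at 25 °C, -0.73, interval -1.03 to -0.43, limma adjusted p = 0.00482, leaving out replicate 1 at 25 °C gave -0.62 and 0.0113) and higher at 14 than at 30 °C (1.37-fold, 0.45, interval 0.15 to 0.75, adjusted p = 0.024). In H2Av RNAi cells the same differences were 0.06 (interval -0.24 to 0.36) and -0.09 (interval -0.39 to 0.21). The tests of the difference between RNAi groups gave 0.79 for 30 against 25 °C (interval 0.37 to 1.22, adjusted p = 0.102) and -0.55 for 14 against 30 °C (interval -0.97 to -0.12, adjusted p = 0.394), neither of which passed. With array weights both passed (0.77, 0.00826, and -0.61, 0.0319, the latter beside 3.63% of all probes), and the first also passed in the settings named above. After H2Av RNAi *Dcp-1* was lower at 25 °C (69.3% of the lacZ RNAi level, -0.53, interval -0.83 to -0.23, adjusted p = 0.0142), with -0.42 (0.0479) without replicate 1 of lacZ RNAi and -0.50 (0.0537) without replicate 2 of H2Av RNAi. It gave -0.28 at 14 °C (interval -0.58 to 0.02) and 0.26 at 30 °C (interval -0.04 to 0.56). The difference between 14 and 30 °C in lacZ RNAi cells was lost without replicate 2 (adjusted p = 0.0634) or 3 (0.0911) at 14 °C, without replicate 1 (0.053) or 3 (0.0827) at 30 °C, and with the compared groups only (0.0776).

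Other genes of cell death were described from lists by function, each on its representative probe only. Several have more probes on the array, among them *drpr*, *foxo* and *Drep2* with 3 each, and their probes were not compared. For the listed genes, no fit without replicate 2 of lacZ RNAi at 30 °C (weight 0.18) is given. How far their calls between 14 and 30 °C in lacZ RNAi cells rest on that array was not tested. Of the 51 listed genes, 48 were tested. Between 14 and 30 °C, 10 were higher and 8 lower in lacZ RNAi cells (15.3% and 16.6% of all probes), and 12 were higher and 15 lower in H2Av RNAi cells (18.2% and 20.2%), with median changes of 0.19 and 0.05. After H2Av RNAi, 4 were higher and 5 lower at 25 °C (11.2% and 15.9% of all probes), and 4 and 4 without replicate 1 of lacZ RNAi (17.9% of all probes in both directions). At 30 °C, 1 was higher (*foxo*) and 1 lower (12.2% of all probes passed), and 0 passed at 14 °C (limma, 3 at an unadjusted p under 0.05, 7.23% of all probes). Over the temperatures 7 were higher and 7 lower (16.1% and 19.8% of all probes). The shares of all probes given here also stand behind the counts for the single lists that follow.

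Of the 4 other caspases, 3 were higher at 14 than at 30 °C by more than 2-fold in both RNAi groups (19.6% of all probes passed with such a change in lacZ RNAi and 24.3% in H2Av RNAi, in both directions). *Dredd*, the caspase of the Imd immune pathway, was higher by 1.26 in lacZ RNAi and 1.31 in H2Av RNAi cells (limma adjusted p = 0.000124 and 7.24e-05). *Decay*, an effector-type caspase, was higher by 1.68 (adjusted p = 0.000269) and 1.91 (7.41e-05), and *Damm* by 1.04 (0.0291) and 1.5 (0.00306). *Strica* gave 0.35 and 0.62 and did not pass. After H2Av RNAi at 25 °C, *Decay* was lower (-1.18, adjusted p = 0.0056, and -0.98, 0.0265, without replicate 1 of lacZ RNAi), with group means of 6.6 ± 0.12 against 7.78 ± 0.35 (SD, n = 3).

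Among 19 inducers of cell death and their receptors, the comparison of 14 with 30 °C gave 5 genes higher and 3 lower in lacZ RNAi cells, and 5 genes higher and 6 lower in H2Av RNAi cells. *p53*, the gene of a transcription factor that induces *rpr* after irradiation in flies, was lower at 14 than at 30 °C in lacZ RNAi (-0.93, limma adjusted p = 0.00229) and H2Av RNAi cells (-0.76, adjusted p = 0.00718), opposite in sign to *rpr*. After H2Av RNAi, *p53* was higher at 25 °C (0.67, interval 0.25 to 1.09, adjusted p = 0.0217, and 0.76, 0.0251, without replicate 1 of lacZ RNAi) and gave 0.16 at 14 °C (interval -0.26 to 0.57) and -0.01 at 30 °C (interval -0.43 to 0.40). *foxo*, the transcription factor held back by insulin signalling, rose after H2Av RNAi by 0.96 over the temperatures (1.94-fold, interval 0.68 to 1.24, adjusted p = 7.58e-05). It was also higher at 14 than at 30 °C in lacZ RNAi (0.96, adjusted p = 0.00506) and H2Av RNAi cells (0.73, adjusted p = 0.0205). The 6 lower genes, and the 15 lower over all lists, include *grnd*, a TNF receptor. Its probe was well above background on 0 of 3 H2Av RNAi arrays at 14 °C and on 2 of 3 at 30 °C. Only through that group at 30 °C did *grnd* enter the test, which favoured a lower value at 14 °C. Its call is therefore no evidence of a change, and no fold change is given for it.

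Of 7 tested genes of the mitochondrial and Bcl-2 group, 4 were higher and 1 lower after H2Av RNAi over the temperatures. The Bcl-2 family genes *Debcl* (0.80, limma adjusted p = 0.00186) and *Buffy* (1.06, adjusted p = 0.0484) were among those higher. The *Buffy* probe was well above background on 14 of 18 arrays, and without replicate 1 of lacZ RNAi at 25 °C its change was 1.08 (adjusted p = 0.0633), with 2 genes of this group higher in place of 4. In the group of DNA fragmentation genes, *Drep1* was lower after H2Av RNAi (-0.87, adjusted p = 0.00958), and *Drep2* was higher at 14 than at 30 °C in lacZ RNAi (1.84, 0.0002) and H2Av RNAi cells (0.83, 0.0291). *EndoG*, a mitochondrial nuclease, was lower at 14 °C (-0.98, adjusted p = 0.0227, and -1.58, adjusted p = 0.00098).

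Of 6 engulfment genes, 1 was higher and 2 were lower at 14 than at 30 °C in each RNAi group. *drpr* (*draper*), the receptor by which phagocytes take up dead cells, was higher by 2.22 in lacZ RNAi (limma adjusted p = 0.000781) and 1.91 in H2Av RNAi cells (0.00192). *ced-6*, an adaptor of Draper, was lower by about as much in both (-0.94, adjusted p = 0.00303, and -0.92, adjusted p = 0.00299). *NimC4*, another receptor for dead cells, was lower after H2Av RNAi over the temperatures (-0.80, adjusted p = 0.021). Of the 3 other genes of the IAP family, 1 was lower in lacZ RNAi cells and 2 in H2Av RNAi cells between 14 and 30 °C (medians -0.51 and -0.77), and of 6 caspase regulators 1 was lower in lacZ RNAi cells, while 1 was higher and 2 lower in H2Av RNAi cells.

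**Figure D5:**
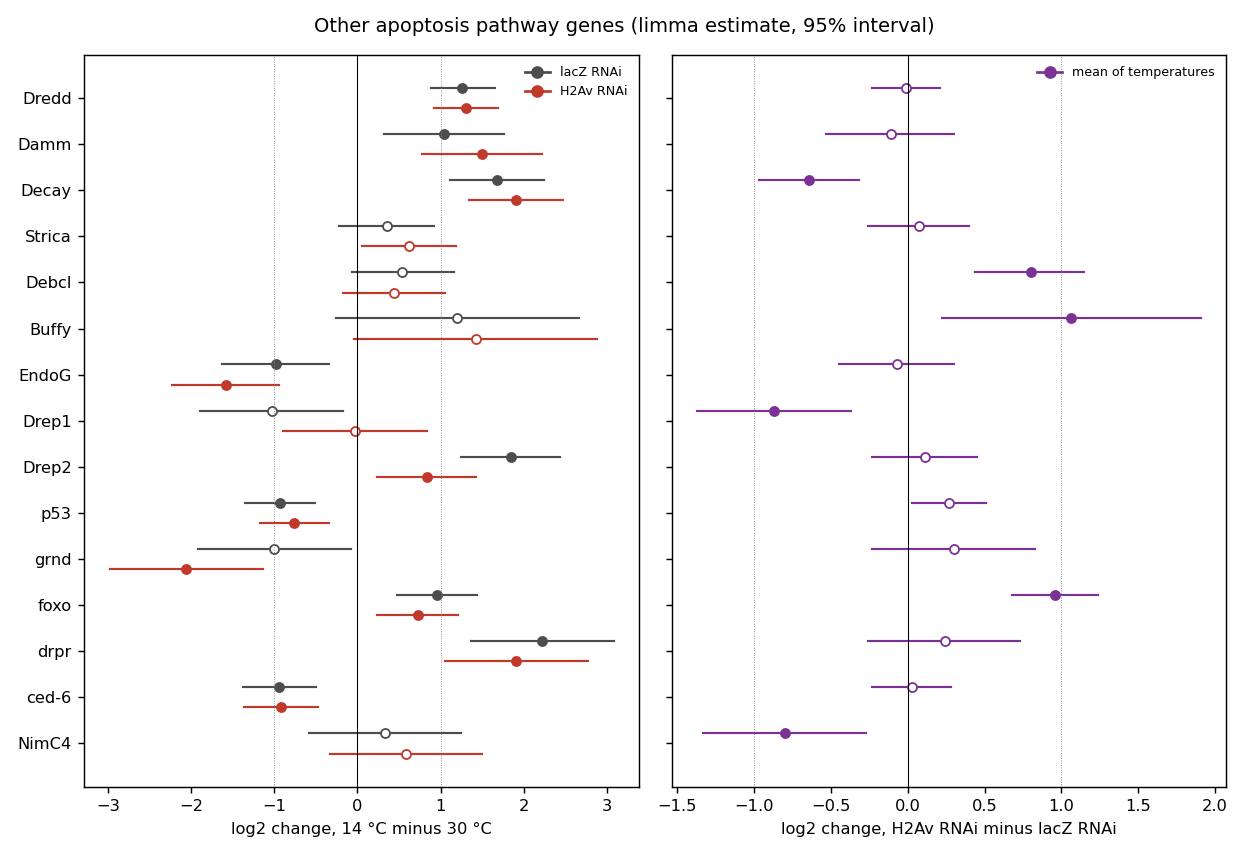
Log2 change (x axis) with its 95% interval for the other pathway genes that passed with a 2-fold change in at least 1 comparison. Left, 14 °C minus 30 °C in lacZ RNAi (dark grey) and H2Av RNAi (red), and right, H2Av RNAi minus lacZ RNAi over the temperatures. Filled circles passed and open circles did not. *grnd* is drawn at its fitted change although it was at background at 14 °C and entered the test only through H2Av RNAi at 30 °C. *Dredd*, *Damm*, *Decay*, *drpr*, *Drep2* and *foxo* lie to the right of 0 in both RNAi groups of the left panel.

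Among all named probes tested, the genes most like a member over the 18 arrays were ranked by Pearson's r, as a description of arrays that share groups and slides. This was done only for members that passed in at least 1 comparison, so *skl* and *grim* were not ranked. For *rpr* they were *pippin* (0.945), *CG14613* (0.944) and *ome* (0.941). For *Dronc* they were *CG31908* (0.945), *p53* (0.927) and *CG5664* (0.915). *hid* was most like *CG42671* (0.944) and *klar* (0.935), and *Diap1* was most like *ttk* (0.938), *l(2)gl* (0.913) and *CG12822* (0.905). *Dark* was most like *CG15390* (0.934), *Drice* most like *Serinc* (0.91) and *Dcp-1* most like *Hrs* (0.883).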

How the data were processed

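Cy3-labelled complementary RNA, made from the total RNA of 18 samples, was hybridised to 1-colour Agilent arrays, and each array was assigned to its group by its title. The deposited scanner files, made by the authors with Feature Extraction 10.7.3.1, hold linear intensity readings and flags (per the file headers) for spots well above background, saturated or outlying. The column used was the processed signal, from which the scanner software had already subtracted background. A deposited matrix of log2 values, quantile-normalized by the authors, served as an alternative, for 40930 of 43603 rows whose spot numbers matched. The study's methods name quantile normalization.

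After log2 transformation, the 43603 non-control spots of each array were quantile-normalized with limma 3.58.1 in R 4.3.3, outlier spots (42 to 78 per array) were dropped, and the median over a probe's spots was taken. No spot was saturated (0). Linear models with 6 group means, 12 residual and 2.35 prior degrees of freedom gave 13 contrasts (lmFit, eBayes, two-sided). Signal over background and the 3 arrays per group limit the precision. The script was tested on simulated data. Probes were named through RefSeq locus tags, synonyms and accessions (19528 of 32162 probes, 60.7%). Gene start coordinates on chromosome arm 3L served only to find the genes that flank or separate the IAP antagonists. Sequences were not used here. Members, gene lists and tests were chosen with earlier results of these data known. All members' probes are reported, and pathway genes are named if they passed with a 2-fold change in at least 1 contrast. Checks of replicate numbers showed that same-numbered arrays deviated together (every correlation over 0.1) in 4 of 15 pairs of groups, namely lacZ RNAi at 14 and 30 °C and all pairs within H2Av RNAi. Alternatives were other scaling, background correction, filters, the matrix, the compared groups only, replicate blocks, array weights, the mean over probes, a mean-variance trend and leaving out each array.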

Additional observations from a re-analysis of the deposited data

How the results depend on the processing

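No call turned its direction under any alternative run. Of 104 pairs of gene and comparison, 19 passed, while the share of all probes ran from 0.00918% to 38.4% by comparison. The count of 19 is not read as a result about the members. Of the other 85 pairs, 30 passed under at least 1 alternative with all arrays. The number of genes passing for H2Av RNAi was 0 at 14 °C, 5 at 25 °C and 0 at 30 °C; with array weights it was 1 at 14 °C (*rpr*, 16.8% of all probes in place of 7.23%) and 5 at 30 °C (38.1% in place of 12.2%), and 1 instead of 0 for the difference in temperature effect between 14 and 30 °C (*Dcp-1*, adjusted p = 0.0319, 3.63% of all probes in place of 0.409%). These weights also gave 7 genes in place of 4 over the temperatures (48.6% of all probes in place of 35.9%), and 4 in place of 0 between 30 and 25 °C in H2Av RNAi cells (*rpr* -0.81, *Dronc* -0.28, *Drice* -0.43 and *Dark* 0.25, 42.4% of all probes in place of 12%). With the compared groups only, 0 genes passed for H2Av RNAi at 25 °C (11.5% of all probes in place of 27.2%). Between 14 and 30 °C in lacZ RNAi cells, 2 passed instead of 4 (23.7% in place of 31.9%). Leaving out 1 array gave 0 to 1 genes at 14 °C (1 without replicate 1 of lacZ RNAi at 30 °C), 2 to 5 at 25 °C (2 without replicate 1 of lacZ RNAi or replicate 1 or 2 of H2Av RNAi), 0 to 1 at 30 °C (1 without replicate 2 of lacZ RNAi), 1 to 4 between 14 and 30 °C in lacZ RNAi (1 without replicate 3 at 14 °C or 1 at 30 °C), 1 to 3 in H2Av RNAi (1 without replicate 2 at 14 °C) and 0 to 0 for the difference. Shares of all probes are not listed here for these fits, for the replicate-block fits below or for the 30 pairs as a set. These counts therefore do not tell a change of the members from a change of all probes. The cause of these changes in count was not tested. Under 75th percentile scaling the median of all probes stood at 0.12 between 14 and 30 °C in lacZ RNAi and 0.43 for H2Av RNAi at 25 °C, where 3 of the 5 genes passing were higher in place of 2 of 5.

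With the replicate number as a block, 1 gene instead of 0 passed for H2Av RNAi at 30 °C (*rpr*, adjusted p = 0.0499), and *Diap1* was lost over the temperatures (0.0526). Same-numbered arrays correlated between -0.47 and 0.61 in their deviations. Where the numbers paired, the block within RNAi groups, an alternative chosen after seeing the data, changed the call of *Diap1* (0.0716) and of no other member that had passed. Between 14 and 25 °C in lacZ RNAi cells, where the numbers did not pair, *hid* passed with that block (0.0396). Leaving out replicate 1 of lacZ RNAi at 25 °C for all probes and pathway genes, also with 75th percentile scaling, was likewise added after seeing the data. A slide block could not be fitted, since each slide held 1 group.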
